A study of Caenorhabditis elegans with 24 samples.

Results

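The RNA of 10 genes of the *C. elegans* apical extracellular matrix and of molting was followed in worms lacking *set-9*, *set-26* or both: *fbn-1*, *noah-1*, *noah-2*, *let-653*, *lpr-1*, *lpr-3*, *mlt-8*, *mlt-10*, *mlt-11* and *sym-1*. They were taken from the count table by name, each WBGene identifier being matched to its symbol, and make up 10 of its 46508 genes. All 10 were found, and all 10 had enough reads to be tested. *set-9* and *set-26* are a pair of near-identical genes that encode SET and PHD domain proteins. Ribosomal RNA was depleted from the RNA of whole worms at the L4 larval stage, with 4 genotypes sequenced in 2 libraries each. These were double mutants carrying both *set-9(rw5)* and *set-26(tm2467)*, the *set-26(tm2467)* single mutant, the *set-9(rw5)* single mutant and N2, the wild-type strain. The methods describe growth at a single temperature to mid or late L4 for every genotype. They describe F1 double mutants, bred from heterozygotes kept over the nT1 balancer, and F3 double mutants, bred from F2 double mutants. The paper reports a mild fertility defect in the F1 and a severe one in the F3. The labels do not give the generation of the double mutant libraries, so they do not tell F1 from F3. A supplementary list of the paper has *fbn-1* lower in the F3 than in wild type, by RNA-seq and by qPCR. It holds no such value for the F1, and which generation was sequenced here was not tested. Nothing in the labels says that the 2 libraries of a genotype came from separate cultures, so the p-values below measure the spread between these libraries, which may be technical.

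A worm wears a collagen cuticle over its epidermis and replaces it at each larval molt. Before each new cuticle is laid down, the epidermis and other epithelia first secrete a transient precuticle onto their apical surface, built of zona pellucida (ZP) domain proteins, lipocalins and leucine-rich repeat proteins, which shapes the body surface and keeps narrow tubes open. Genes of the precuticle and of molting are transcribed in a pulse once in each larval stage, and nuclear hormone receptors such as NHR-23 drive many of these pulses. In RNA of whole worms, fewer cells of a type and less RNA per cell cannot be told apart. Genotype and position within the L4 stage cannot be told apart either, since no time within it is given for any library.

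The windows around the annotated starts of 6 of the genes are shown as examples of the 3 patterns described below, not as all their members. *lpr-3*, *mlt-11* and *sym-1* were lower in the double mutant and in *set-26*. *fbn-1* was lower in the double mutant with no call in either single mutant, and *mlt-8* and *mlt-10* were at N2 level in the double mutant. Each window runs from 250 bases before to 50 bases after the start on the gene's own strand, 5′ to 3′, and was read from the RefSeq genome sequence of WBcel235 with starts from the Ensembl 115 annotation. Capitals mark every match, on either strand, to AGGTCA, the half-site that nuclear receptors bind (printed as TGACCT where it lies on the other strand), and to GATAA, a core that GATA factors bind (printed as TTATC on the other strand). No 2 matches share a base in these windows. The windows lie at chrX:11057151-11057450 (plus strand) for *lpr-3*, chrV:20666955-20667254 (plus) for *mlt-11*, chrX:14581372-14581671 (plus) for *sym-1*, chrIII:7625136-7625435 (plus) for *fbn-1*, chrII:572061-572360 (minus) for *mlt-8* and chrII:546455-546754 (plus) for *mlt-10*.
lpr-3: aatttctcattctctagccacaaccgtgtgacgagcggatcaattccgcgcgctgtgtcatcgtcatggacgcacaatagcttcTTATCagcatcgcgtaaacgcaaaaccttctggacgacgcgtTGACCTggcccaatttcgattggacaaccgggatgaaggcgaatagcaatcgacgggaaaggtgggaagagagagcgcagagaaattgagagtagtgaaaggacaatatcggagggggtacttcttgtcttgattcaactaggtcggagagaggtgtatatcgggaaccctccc
mlt-11: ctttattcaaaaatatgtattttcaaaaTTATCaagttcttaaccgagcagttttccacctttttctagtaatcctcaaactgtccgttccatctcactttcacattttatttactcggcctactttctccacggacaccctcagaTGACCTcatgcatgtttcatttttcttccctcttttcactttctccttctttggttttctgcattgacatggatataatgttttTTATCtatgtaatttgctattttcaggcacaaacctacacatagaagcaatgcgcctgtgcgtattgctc
sym-1: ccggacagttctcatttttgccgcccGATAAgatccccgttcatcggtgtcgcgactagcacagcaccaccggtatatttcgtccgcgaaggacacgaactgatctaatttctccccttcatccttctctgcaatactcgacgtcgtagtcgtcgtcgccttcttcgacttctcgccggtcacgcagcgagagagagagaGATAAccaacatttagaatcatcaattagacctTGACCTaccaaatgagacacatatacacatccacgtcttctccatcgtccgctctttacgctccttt
fbn-1: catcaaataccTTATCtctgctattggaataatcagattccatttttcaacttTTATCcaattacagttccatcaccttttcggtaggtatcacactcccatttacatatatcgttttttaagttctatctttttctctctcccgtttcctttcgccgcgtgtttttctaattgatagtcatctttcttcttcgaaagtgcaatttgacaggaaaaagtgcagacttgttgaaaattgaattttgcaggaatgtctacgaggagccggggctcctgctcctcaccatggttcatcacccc
mlt-8: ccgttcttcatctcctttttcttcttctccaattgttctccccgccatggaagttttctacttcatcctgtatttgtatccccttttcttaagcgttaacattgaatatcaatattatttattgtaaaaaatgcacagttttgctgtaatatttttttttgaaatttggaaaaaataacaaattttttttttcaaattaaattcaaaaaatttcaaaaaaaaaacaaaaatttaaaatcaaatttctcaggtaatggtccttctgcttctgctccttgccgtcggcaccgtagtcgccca
mlt-10: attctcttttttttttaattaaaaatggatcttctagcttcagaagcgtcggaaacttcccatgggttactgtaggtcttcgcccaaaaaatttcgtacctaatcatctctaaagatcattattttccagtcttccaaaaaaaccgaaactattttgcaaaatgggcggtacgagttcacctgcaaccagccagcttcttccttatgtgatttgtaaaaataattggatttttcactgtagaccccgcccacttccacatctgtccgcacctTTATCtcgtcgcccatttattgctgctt
AGGTCA occurred in 4 of the 10 windows, those of *lpr-1*, *lpr-3*, *mlt-11* and *sym-1*, and in 8.23% of the 19620 windows of protein-coding genes of the same length. Its first base lay at −27 in *lpr-1*, −124 in *lpr-3*, −104 in *mlt-11* and −17 in *sym-1*, counted from the start. GATAA occurred in 6 of the 10 windows and in 57.7% of all windows. The presence of AGGTCA did not divide the 10 genes by pattern, although it does so among the windows shown. *noah-1*, not shown, was called lower in the double mutant and in *set-26*, like *lpr-3*, *mlt-11* and *sym-1*, but held no AGGTCA. *lpr-1*, also not shown, held AGGTCA and was called in the double mutant only. A link between matches and calls was not tested. A match describes these letters only, not a bound site.

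The 8 libraries held 16363189 to 26187811 reads on genes, and 3 reads correspond to 0.115 to 0.183 CPM, the reads scaled to a common library size. Levels are given as CPM after TMM scaling, which corrects library totals for composition. Genes were tested with edgeR's quasi-likelihood test over the 14667 genes that reached 20 reads in 1 library or more. A gene was called where its Benjamini-Hochberg adjusted p passed a 5% false discovery rate. The label check on the *set-9* gene gave 30.6 and 33.0 CPM in the double mutant, 115 and 107 in *set-26*, 46.0 and 39.9 in *set-9* and 90.4 and 91.4 in N2, values that are uncertain because reads can be shared with its paralog. The expression of *set-26* itself was not analysed here. The median log2 fold change over all tested genes lay within 0.01 of 0 in each comparison.

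Together the 10 genes took 0.825% and 0.803% of the reads in the double mutant libraries, 0.640% and 0.764% in *set-26*, 0.639% and 0.874% in *set-9*, and 1.28% and 1.53% in N2. *mlt-11* alone took 0.30% to 0.83% of a library. Every mutant library gave the genes a smaller share than either N2 library. Per kilobase of merged exons, *lpr-3* (817 CPM per kb in N2), *mlt-11* (807) and *sym-1* (778) were the most abundant of the 10 and ranked 218, 221 and 224 of the 14493 tested genes with a length. The least abundant was *lpr-1*, with 16.4 CPM per kb and rank 4724.

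**Figure D1:**
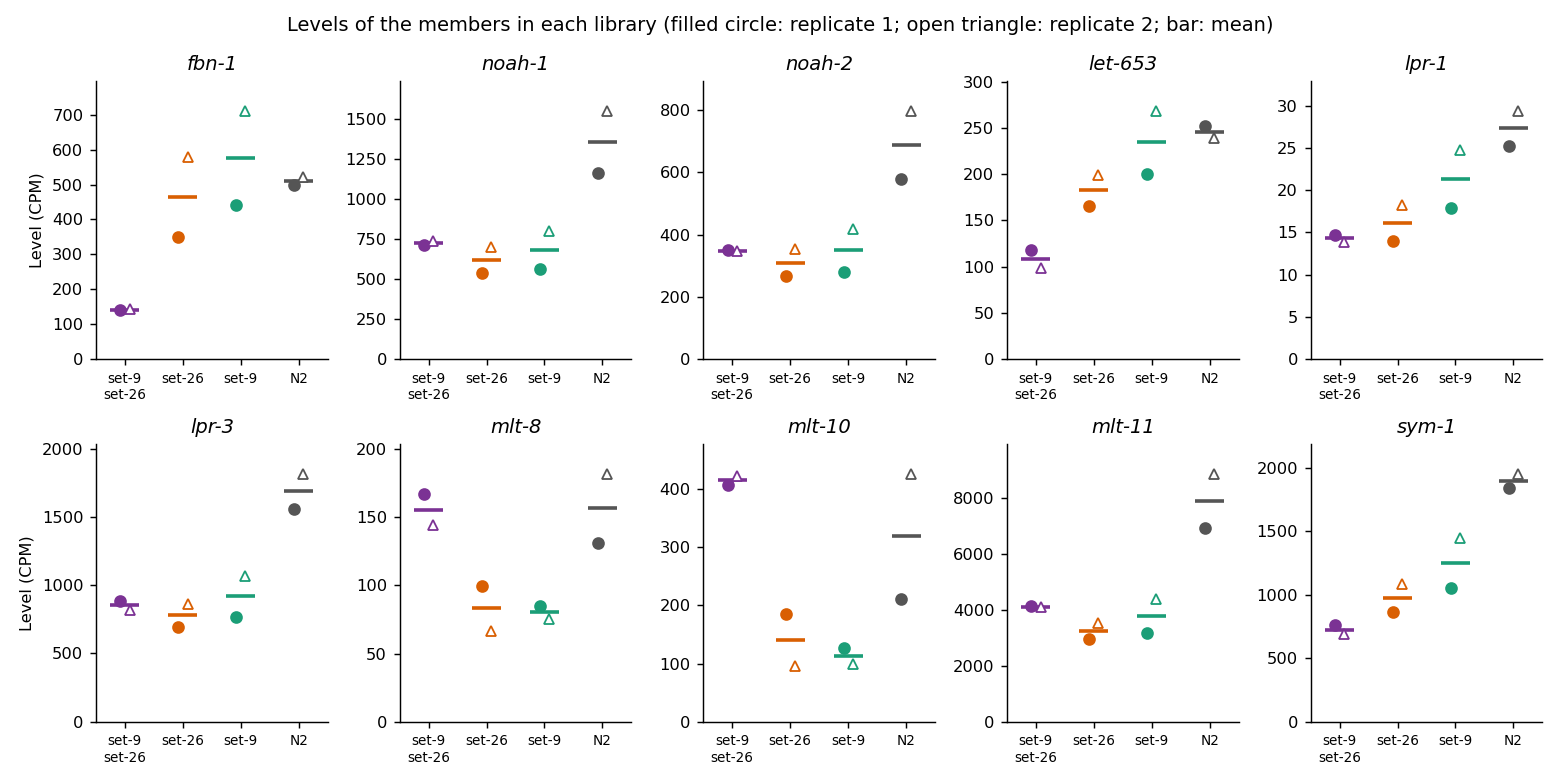
Level of each of the 10 genes, in TMM-scaled CPM, in every library of the *set-9 set-26*, *set-26*, *set-9* and N2 genotypes (filled circles: replicate 1, open triangles: replicate 2, bars: genotype means). *noah-1*, *noah-2*, *lpr-1*, *lpr-3*, *mlt-11* and *sym-1* are lower in all 6 mutant libraries than in both N2 libraries, while *mlt-8* and *mlt-10* return to the N2 range in the double mutant and *fbn-1* is low in the double mutant alone.

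Among the ZP domain genes, *noah-1* and *noah-2* showed nearly the same profile, and *fbn-1* and *let-653* another. NOAH-1 (chromosome I, 5874416 to 5878958, WBcel235, as for all positions given here) and NOAH-2 (chromosome IV, 14091254 to 14096626) are ZP proteins of the sheath over the embryo and of the larval precuticle. *noah-1* had 714 and 737 CPM in the double mutant, 540.1 and 701 in *set-26*, 565 and 798 in *set-9*, and 1166 and 1552 in N2. All 6 mutant libraries were below both N2 libraries, and the range of *set-9* overlapped those of both other mutants. Its log2 fold change over N2 was −0.91 in the double mutant (SE 0.21, adjusted p = 0.038 in edgeR), −1.13 in *set-26* (SE 0.21, adjusted p = 0.040) and −0.995 in *set-9* (SE 0.21, adjusted p = 0.0999), the last not called. *noah-2* had 349.8 and 347 CPM in the double mutant, 266 and 353 in *set-26*, 279.9 and 418 in *set-9*, and 579 and 797 in N2. Again no mutant library reached the lower N2 library. For *noah-2* the log2 fold change was −0.98 in the double mutant (SE 0.23, adjusted p = 0.040), −1.15 in *set-26* (SE 0.23, adjusted p = 0.052) and −0.98 in *set-9* (SE 0.23, adjusted p = 0.13), so that it passed the test in the double mutant only, although its differences in the 3 genotypes were alike in size. Over the 8 libraries Pearson's r between the log2 levels of *noah-1* and *noah-2* was 0.997, a description over libraries that share their genotypes.

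FBN-1 (chromosome III, 7625386 to 7641078), a fibrillin-like ZP protein, helps the embryonic epidermis withstand mechanical force. *fbn-1* had 139.8 and 143 CPM in the double mutant, 349 and 580.0 in *set-26*, 441 and 711 in *set-9*, and 498 and 521 in N2. Both double mutant libraries were far below all 6 others, while the 2 libraries of each single mutant lay on either side of both N2 libraries. *fbn-1* fell by 1.85 on the log2 scale in the double mutant (SE 0.28, adjusted p = 0.011). Its log2 fold change was −0.13 in *set-26* (SE 0.27, adjusted p = 0.87) and 0.18 in *set-9* (SE 0.27, adjusted p = 0.86), and leaving out 1 library of the single mutant turned both signs (0.19 without *set-26* replicate 1, −0.21 without *set-9* replicate 2). LET-653 (chromosome IV, 11885613 to 11891082) is a ZP protein that holds open the excretory duct and the vulval lumen. *let-653* had 118 and 98.5 CPM in the double mutant, 166 and 199 in *set-26*, 200.3 and 269 in *set-9*, and 252 and 239 in N2. The double mutant was lowest, *set-26* was between it and N2 without overlap, and *set-9* overlapped N2. The log2 fold change of *let-653* was −1.18 in the double mutant (SE 0.17, adjusted p = 0.0097), −0.43 in *set-26* (SE 0.17, adjusted p = 0.26) and −0.07 in *set-9* (SE 0.17, adjusted p = 0.92), of which only the first was called. Pearson's r between *fbn-1* and *let-653* over the 8 libraries was 0.955.

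LPR-1 (chromosome I, 557375 to 561671) and LPR-3 (chromosome X, 11057401 to 11059793) are secreted lipocalins, proteins with a pocket for small lipid-like molecules, and both are needed to keep the excretory duct and pore intact. *lpr-1* had 14.7 and 13.9 CPM in the double mutant, 13.96 and 18.3 in *set-26*, 17.8 and 24.7 in *set-9*, and 25.2 and 29.4 in N2. The *set-9* library at 24.7 came close to the lower N2 library, and the means ascended in the order double mutant, *set-26*, *set-9*, N2, with neighbouring mutant genotypes overlapping. *lpr-1* was called in the double mutant, with a log2 fold change of −0.94 (SE 0.21, adjusted p = 0.033), and not in *set-26* (−0.76, SE 0.21, adjusted p = 0.11) or *set-9* (−0.36, SE 0.20, adjusted p = 0.51). *lpr-3* had 885 and 819 CPM in the double mutant, 697 and 861 in *set-26*, 766 and 1069 in *set-9*, and 1557 and 1818 in N2. N2 stood apart, and the mutant genotypes overlapped one another. The log2 fold change of *lpr-3* was −0.99 in the double mutant (SE 0.18, adjusted p = 0.019), −1.12 in *set-26* (SE 0.18, adjusted p = 0.028) and −0.88 in *set-9* (SE 0.18, adjusted p = 0.090).

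SYM-1 (chromosome X, 14581622 to 14584378) is a secreted leucine-rich repeat protein that acts with other extracellular proteins of its kind in embryonic epidermal integrity and muscle attachment. *sym-1* had 759 and 691 CPM in the double mutant, 861 and 1081 in *set-26*, 1049 and 1446 in *set-9*, and 1838 and 1954 in N2. The means ascended from the double mutant through *set-26* and *set-9* to N2, and only *set-26* and *set-9* overlapped. *sym-1* was lower in the double mutant, with a log2 fold change of −1.39 (SE 0.17, adjusted p = 0.0064), and in *set-26*, with −0.97 (SE 0.17, adjusted p = 0.037), while −0.60 in *set-9* (SE 0.17, adjusted p = 0.18) was not called. MLT-11 (chromosome V, 20667205 to 20678537) is a large secreted protein with Kunitz-type protease inhibitor domains, required to shed the old cuticle. *mlt-11* had 4121 and 4108 CPM in the double mutant, 2947 and 3513 in *set-26*, 3177 and 4401 in *set-9*, and 6932 and 8871 in N2. All mutant libraries were far below N2, and the *set-9* libraries lay on either side of those of the double mutant. For *mlt-11* the log2 fold change was −0.94 in the double mutant (SE 0.18, adjusted p = 0.022), −1.29 in *set-26* (SE 0.18, adjusted p = 0.019) and −1.06 in *set-9* (SE 0.18, adjusted p = 0.060). Pearson's r over the 8 libraries was 0.993 between *mlt-11* and *noah-1* and 0.980 between *mlt-11* and *lpr-3*, and 0.977 between *sym-1* and *lpr-1*.

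*mlt-8* and *mlt-10* behaved differently. Both are needed for worms to complete their molts, and MLT-10 is the founding member of a family of nematode repeat proteins made in the epidermis at the molt. They lie on chromosome II, *mlt-10* at 546705 to 552032 and *mlt-8* at 569210 to 572110 on the opposite strand, 17177 bases apart. *mlt-8* had 167 and 144 CPM in the double mutant, 99.7 and 66.9 in *set-26*, 85.2 and 75.3 in *set-9*, and 131 and 182 in N2. The double mutant libraries lay within the N2 range, and all 4 single mutant libraries below both. The log2 fold change of *mlt-8* over N2 was −0.01 in the double mutant (SE 0.22, adjusted p = 0.98), −0.91 in *set-26* (SE 0.22, adjusted p = 0.087) and −0.97 in *set-9* (SE 0.22, adjusted p = 0.12), none of them called. *mlt-10* had 408 and 423 CPM in the double mutant, 186 and 95.4 in *set-26*, 127 and 99.8 in *set-9*, and 211 and 427 in N2. The double mutant was near the higher N2 library, and every single mutant library was below the lower one. For *mlt-10* the log2 fold change was 0.38 in the double mutant (SE 0.38, adjusted p = 0.55), −1.18 in *set-26* (SE 0.38, adjusted p = 0.18) and −1.49 in *set-9* (SE 0.38, adjusted p = 0.15), with N2 libraries that themselves differed 2.02-fold. Over the 8 libraries Pearson's r between *mlt-8* and *mlt-10* was 0.969, and *fbn-1* ran opposite to both, with r = −0.712 against *mlt-10* and −0.576 against *mlt-8*.

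**Figure D2:**
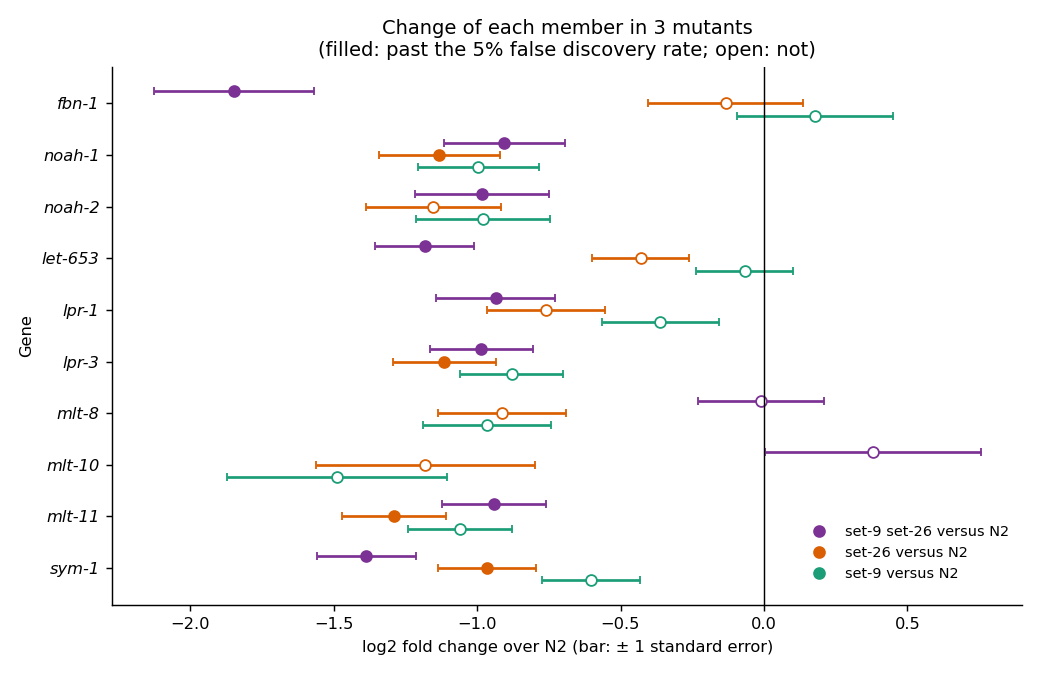
Log2 fold change over N2 of each of the 10 genes in the *set-9 set-26*, *set-26* and *set-9* genotypes (horizontal axis, with bars of 1 standard error; filled points pass the 5% false discovery rate, open points do not). 8 genes are filled for the double mutant, 4 for *set-26* and 0 for *set-9*, and *mlt-8* (−0.01) and *mlt-10* (0.38) of the double mutant lie at or right of 0.

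Counted over the 10 genes, 8 were lower in the double mutant than in N2 and 0 were higher, beside 5.91% of all tested genes called lower. In *set-26*, 4 were lower (*noah-1*, *lpr-3*, *mlt-11* and *sym-1*), beside 1.42% of all tested genes, and in *set-9* 0 were called, beside 0.266%. At an unadjusted p under 0.05 in edgeR's test, 8, 9 and 7 of the 10 differed from N2 in the double mutant, *set-26* and *set-9*, and the Wald test of DESeq2 called 6 of them lower in *set-9*. The median log2 fold change of the 10 was −0.96 in the double mutant, −1.04 in *set-26* and −0.92 in *set-9*. Both libraries were below both N2 libraries for 8 genes in the double mutant, 9 in *set-26* and 8 in *set-9*, beside 29.0%, 22.9% and 21.4% of all tested genes, and no member was above in any mutant. These 3 comparisons share the N2 libraries. The count of calls rested on single libraries: in the double mutant it was 3 without N2 replicate 2, 2 without double mutant replicate 1 and 0 without double mutant replicate 2, and in *set-26* it was 0 without N2 replicate 2, either *set-26* library or either double mutant library. In *set-26* it was also 0 when only the *set-26* and N2 libraries were fitted, and in *set-9* it was 4 with the replicate number as a block.

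Between the mutants, the double mutant separated from the single mutants at *fbn-1*, *let-653*, *mlt-8* and *mlt-10*. Against *set-26*, *fbn-1* fell by 1.71 on the log2 scale (SE 0.28, adjusted p = 0.015) and *let-653* by 0.75 (SE 0.17, adjusted p = 0.036), while *mlt-8* rose by 0.90 (SE 0.22, adjusted p = 0.044) and *mlt-10* by 1.56 (SE 0.38, adjusted p = 0.044). This made 2 of 10 genes lower and 2 higher, beside 5.24% and 5.12% of all tested genes. Against *set-9*, the double mutant was lower at *fbn-1* (−2.02, SE 0.28, adjusted p = 0.0040), *let-653* (−1.11, SE 0.17, adjusted p = 0.0052) and *sym-1* (−0.78, SE 0.17, adjusted p = 0.016), and higher at *mlt-8* (0.96, SE 0.22, adjusted p = 0.019) and *mlt-10* (1.87, SE 0.39, adjusted p = 0.013). These were 3 of 10 genes lower and 2 higher, beside 11.7% and 14.2% of all tested genes. *noah-1*, *noah-2*, *lpr-3* and *mlt-11* differed from the single mutants by −0.11 to 0.35 on the log2 scale and were not called. The 4 calls against *set-26* became 0 without *set-26* replicate 2 or either double mutant library and 2 without either *set-9* library, and the 5 calls against *set-9* became 2 without *set-9* replicate 2 or either double mutant library.

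Between the single mutants, *set-26* was below *set-9* in fitted level for 8 of the 10 genes, with a median log2 difference of −0.23, and none was called, beside 0.695% of all tested genes. None of the 10 reached an unadjusted p under 0.05 in edgeR's test, and DESeq2 called 0. The largest differences were at *lpr-1* (−0.40, SE 0.21), *let-653* (−0.36, SE 0.17) and *sym-1* (−0.36, SE 0.17), with adjusted p of 0.43, 0.39 and 0.39 in edgeR. The replicate spread was as large as these differences: the libraries of *set-9* differed 1.38-fold at *lpr-1*, 1.34-fold at *let-653* and 1.38-fold at *sym-1*.

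The interaction sets the log2 fold change of the double mutant against the 2 single mutant values added together. The same N2 libraries enter all 3 changes, so a gene equally lower in all 3 mutants lies above the sum. Of the 10 genes, 8 had a positive difference from the sum and 2 a negative one. The median difference was 1.08 for the 10 genes and −0.0017 over all tested genes. *fbn-1* was the 1 gene called below the sum, with −1.85 in the double mutant against a sum of 0.04, a difference of −1.89 (adjusted p = 0.023 in edgeR). The 5 genes called above the sum were *mlt-10* (0.38 against −2.67, difference 3.05, adjusted p = 0.016), *mlt-8* (−0.01 against −1.88, difference 1.87, adjusted p = 0.014), *mlt-11* (−0.94 against −2.35, difference 1.41, adjusted p = 0.017), *noah-1* (−0.91 against −2.13, difference 1.22, adjusted p = 0.035) and *lpr-3* (−0.99 against −1.99, difference 1.01, adjusted p = 0.039). Among all tested genes 5.60% were called below the sum and 8.27% above it. *noah-2* (1.15, adjusted p = 0.057) and *let-653* (−0.69, adjusted p = 0.0996) were not called. For *lpr-1* (0.19, adjusted p = 0.71) and *sym-1* (0.18, adjusted p = 0.66) the double mutant was near the sum. Fewer of the 10 genes were called whichever library was left out, and the calls did not hold without either double mutant library.

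**Figure D3:**
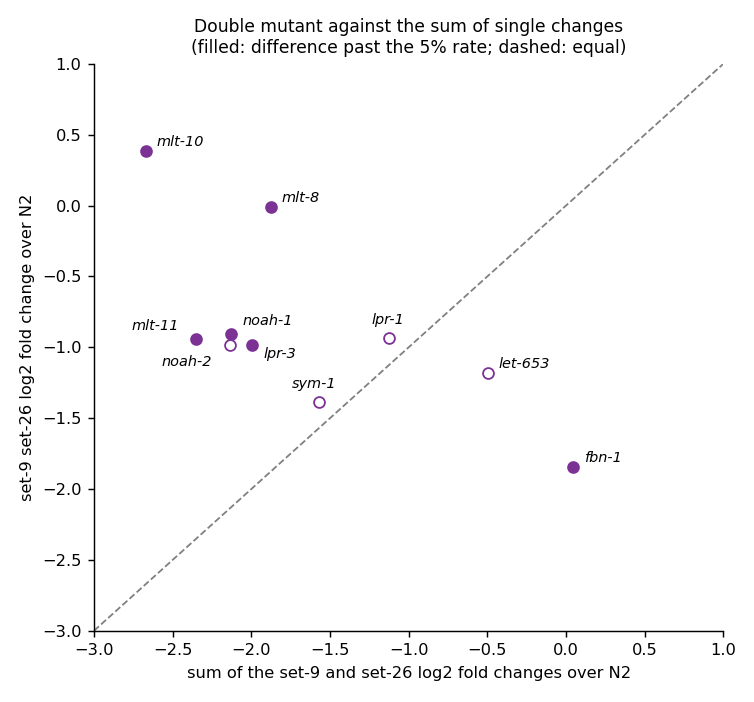
Log2 fold change over N2 when both genes are lost (vertical axis) against the sum of the *set-9* and *set-26* changes (horizontal axis) for the 10 genes; filled points have a difference past the 5% false discovery rate and the dashed line marks equality. *fbn-1* lies below the line (difference −1.89), *mlt-10* above it (3.05), and *lpr-1* and *sym-1* within 0.19 of it.

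The spread between libraries of a genotype also followed the genes. In *set-26* and in *set-9*, replicate 2 was higher than replicate 1 for 8 of the 10 genes, and lower for *mlt-8* and *mlt-10*, while 50.7% and 47.3% of all tested genes with reads in every library were higher in replicate 2. *fbn-1* differed by 0.73 in *set-26* and 0.69 in *set-9* on the log2 scale of replicate 2 over replicate 1, and *mlt-10* by −0.96 and −0.35. In N2, 9 genes were higher in replicate 2, *mlt-10* by 1.01, and only *let-653* was lower, by −0.08, beside 52.5% of all such genes higher. In the double mutant, 3 genes were higher in replicate 2 and 7 lower, beside 48.8% of all such genes higher. The median absolute log2 difference of the 10 was 0.0683 in the double mutant, 0.382 in *set-26*, 0.470 in *set-9* and 0.289 in N2, beside 0.207, 0.225, 0.230 and 0.257 over all tested genes with reads in every library. The median of the 10 was thus above that of all genes in the single mutants and in N2, and below it in the double mutant. The part of this spread in the differences between genotypes was not tested.

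**Figure D4:**
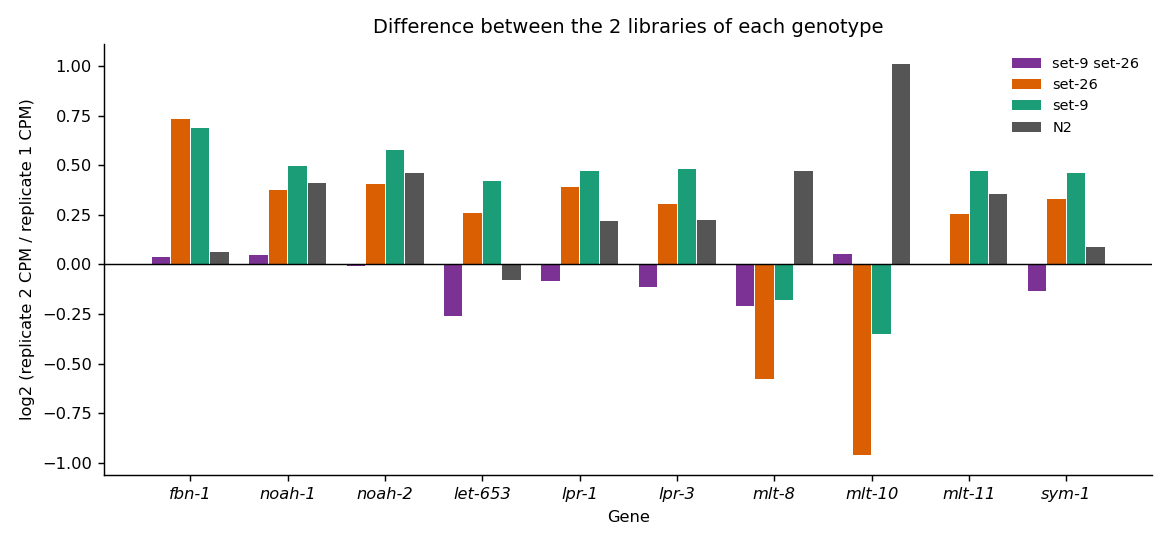
Log2 ratio of replicate 2 over replicate 1 for each of the 10 genes in the *set-9 set-26*, *set-26*, *set-9* and N2 genotypes (bars, from TMM-scaled CPM). 8 genes have bars above 0 in both single mutants, *mlt-8* and *mlt-10* have bars below 0 there (−0.58 and −0.96 in *set-26*) and above 0 in N2 (0.47 and 1.01), and the bar of the double mutant is the smallest of the 4 for 7 of the 10 genes.

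Among other genes of the same matrix, calls went both ways in the double mutant and to lower levels in the single mutants. Of 46 further ZP, cuticlin-like, lipocalin and leucine-rich repeat genes, 39 were tested. Of these, 5 were lower and 4 higher in the double mutant, 4 lower in *set-26* and 1 lower in *set-9*. Over all 14667 tested genes, 1516 were called in the double mutant, 867 of them lower. In *set-26* 351 were called, 208 of them lower, and in *set-9* 68, 39 of them lower. These totals also stand beside the lists below. Their median log2 fold change was 0.25 in the double mutant, −0.07 in *set-26* and −0.27 in *set-9*. Among the called genes, the largest changes in the double mutant were increases of *cut-3*, a cuticlin (4.81), and *cutl-27* (2.43) and a decrease of *cutl-3* (−2.21), both cuticlin-like. *cut-3* had 4.35 and 4.99 CPM in the double mutant and 0.197 and 0.113 in N2, so this is a gene near the floor of detection in N2. In *set-26* the lower genes with the largest changes were *cutl-28* (−1.32), *lpr-5* (−1.26) and *cutl-18* (−1.24), and in *set-9* *cutl-28* (−1.82) was the only call. Chosen after their values were seen, the lipocalins nearest in name were lower in the double mutant too: *lpr-4* by −1.24, *lpr-5* by −0.97 and *lpr-6* by −1.31, all past the test, whereas *lpr-2* (0.28) and *lpr-7* (1.16) were not called.

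Of 25 other molting genes (proteases, their inhibitors, trafficking and hedgehog-related proteins), 0 were called in the double mutant by edgeR's test, with 7 at an unadjusted p under 0.05. In *set-26*, 3 were lower and 1 higher, and in *set-9* 1 was lower, beside 1.42% and 0.266% of all tested genes called lower. In these 2 genotypes 13 and 12 had an unadjusted p under 0.05 in edgeR's test. *nas-37*, the astacin protease that digests the old cuticle, had 97.6 and 102 CPM in the double mutant, 62.7 and 50.6 in *set-26*, 46.2 and 53.4 in *set-9*, and 133 and 165 in N2. It fell in *set-26* (−1.40) and *set-9* (−1.58), and its −0.58 in the double mutant was not called (adjusted p = 0.053). *qua-1*, a hedgehog-related gene needed for molting, changed by −1.52 and *che-14*, a Dispatched-like gene, by −1.14 in *set-26*. In the interaction 22 of the 25 had a positive difference and 3 a negative one, and 11 were called higher and 2 lower, beside 8.27% and 5.60% of all tested genes. Of 12 genes named *mltn*, relatives of *mlt-10*, 9 were tested and 0 were called in any mutant against N2, with 1, 5 and 5 at an unadjusted p under 0.05 in the double mutant, *set-26* and *set-9*. In the interaction all 9 had a positive difference from the sum of the single mutant values, and 5 were called, beside 8.27% of all tested genes. Their medians were 0.29 in the double mutant, −1.09 in *set-26* and −1.22 in *set-9*. In the double mutant 5 were positive and 4 negative, and in each single mutant 2 were positive and 7 negative. *mltn-9*, the most abundant, had 83.2 and 81.4 CPM in the double mutant and 104 and 167 in N2. *mltn-8* and *mltn-10* were near the floor, with 0 CPM in N2 replicate 1. *mltn-2* had 0 reads in all 4 single mutant libraries. Set at its floor of 3 reads it stayed below the single mutant medians, so this could not move them.

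The genes that regulate molting and the collagens laid down after the precuticle were read beside them. Of 7 regulators, *nhr-23*, the nuclear receptor of the molting pulse, had 73.2 and 65.0 CPM in the double mutant, 104 and 124 in *set-26*, 122 and 129 in *set-9*, and 138 and 106 in N2. Both libraries were below both N2 libraries in the double mutant alone, and there *nhr-23* (−0.82), *elt-3*, an epidermal GATA factor (−0.84), and *myrf-1*, a membrane-associated transcription factor needed for molting (−0.73), were lower. *nhr-25*, another nuclear receptor of the epidermis, had 28.1 and 26.0 CPM in the double mutant, 66.5 and 53.2 in *set-26*, 50.6 and 50.7 in *set-9*, and 21.9 and 23.8 in N2. It rose in *set-26* (1.39) and *set-9* (1.15), in which 0 other regulators were called. At an unadjusted p under 0.05 in edgeR's test were 4 of the 7 in *set-26* and 3 in *set-9*. Of these, *lin-42* had 353 and 390 CPM in the double mutant, 219 and 258 in *set-26*, 232 and 335 in *set-9*, and 410 and 555 in N2. Its log2 fold change in *set-26* was −1.01 (adjusted p = 0.053 in edgeR). Of 21 cuticle collagens, 4 were lower and 1 higher in the double mutant, 6 lower and 1 higher in *set-26*, and 2 lower and 1 higher in *set-9*. Among all tested genes, 5.91%, 1.42% and 0.266% were called lower in these 3 comparisons. *bli-1* and *bli-2*, which form the struts of the adult cuticle, fell in both single mutants, with log2 fold changes of −2.03 and −2.16 in *set-26* and −1.85 and −1.96 in *set-9*. In the double mutant *bli-1* (−0.03) and *bli-2* (0.04) were not called. In the interaction 18 of the 21 collagens had a positive difference and 3 a negative one, and 15 were called higher and 1 lower, beside 8.27% and 5.60% of all tested genes. *lon-3*, a collagen that sets body length, fell by 1.73 in *set-26*. *col-10* rose in both single mutants, by 1.02 in *set-26* and 1.22 in *set-9*. It had 1287 and 1474 CPM in the double mutant, below the 2904 and 2423 of N2. In the double mutant *dpy-17*, a cuticle collagen, rose by 2.79, and the collagens *dpy-9* (−1.26) and *dpy-10* (−0.996) fell. Looked at after their values were seen, the 6 furrow collagens *dpy-2*, *dpy-3*, *dpy-7*, *dpy-8*, *dpy-9* and *dpy-10* all had negative log2 fold changes in the double mutant, from −1.26 at *dpy-9* to −0.86 at *dpy-2*, and *dpy-2*, *dpy-9* and *dpy-10* were called. All were negative in *set-26* too, from −1.27 at *dpy-8* to −1.03 at *dpy-7*, with *dpy-2*, *dpy-8* and *dpy-10* called. For each of the 6, both *set-9* libraries were also below both N2 libraries in CPM.

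**Figure D5:**
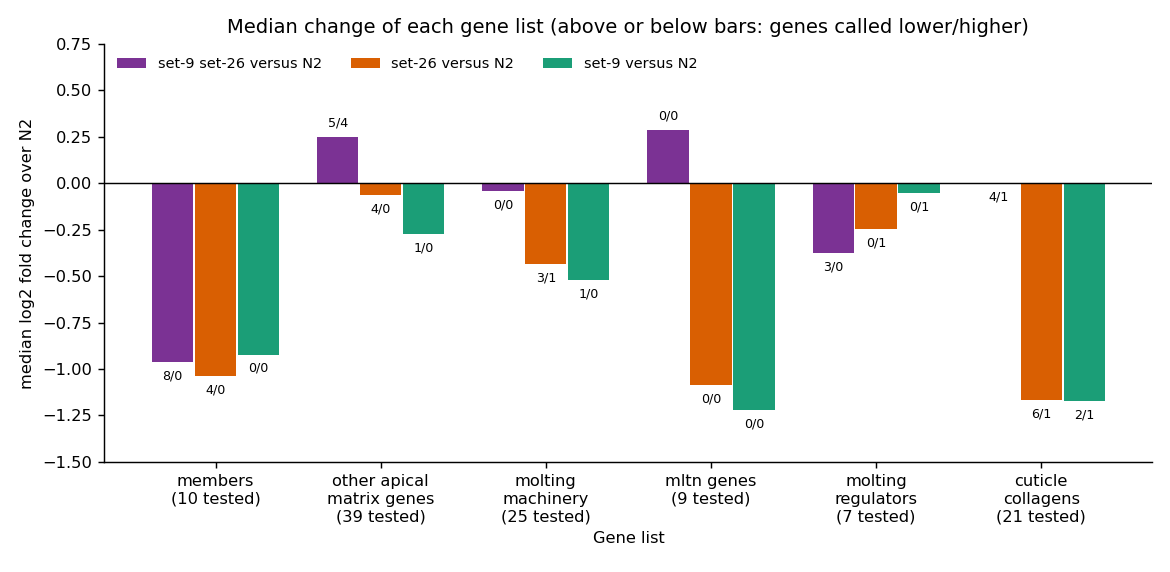
Median log2 fold change over N2 (vertical axis) of the 10 genes and of 5 lists of related genes in the *set-9 set-26*, *set-26* and *set-9* genotypes (bars; the numbers give the genes called lower and higher). The 10 genes have medians near −1 in all 3 mutants (−0.96, −1.04 and −0.92), and the collagens have medians of 0.00 in the double mutant, where their members went both ways, and −1.17 in each single mutant.

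The 5 genes outside the 10 whose log2 levels followed them most closely over the 8 libraries were *R148.5*, *dpy-9*, *lpr-4*, *hum-6* and *col-46*, with mean Pearson's r of 0.746, 0.743, 0.739, 0.736 and 0.736. *dpy-9* encodes a collagen, *lpr-4* a lipocalin and *hum-6* an unconventional myosin. *dpy-9* averaged 71.0 CPM in the double mutant, 75.8 in *set-26*, 89.4 in *set-9* and 170.1 in N2. These values share the libraries and the 4 genotypes with the 10 genes, and describe likeness of level only.

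Markers of tissues moved in part. Among 4 tested epidermal regulators, 0 were called in any mutant against N2 by edgeR, with 0 at an unadjusted p under 0.05. Their summed level was 214 to 221 CPM in the double mutant, 183 to 195 in *set-26*, 179 to 199.9 in *set-9* and 188 to 223 in N2. Of 6 intestinal markers, 3 were lower in the double mutant and 1 in *set-26*, with sums of 9356 to 9797 CPM in the double mutant, 10739 to 10929 in *set-26*, 13963 to 14408 in *set-9* and 13415 to 16226 in N2. *vit-2* had 3206 and 2033 CPM in the double mutant, 376 and 81.9 in *set-26*, 1696 and 516 in *set-9*, and 4579 and 1780 in N2. Its log2 fold change in *set-26* was −3.80, not called. The other 5 changed there by −0.54 (*vha-6*, called), −0.20 (*elt-2*), −0.13 (*asp-1*), −0.09 (*act-5*) and 0.12 (*ges-1*). Of 6 sperm genes, 1 was higher in the double mutant, with sums of 149 to 154 CPM there, 78.4 to 96.5 in *set-26*, 36.2 to 53.3 in *set-9* and 71.3 to 96.7 in N2. Of 5 muscle genes, 1 was lower in the double mutant, with sums of 14747 to 15122 CPM there, 17224 to 18009 in *set-26*, 18864 to 20498 in *set-9* and 17621 to 19320 in N2. Of 6 germline, 6 oocyte and 5 neuronal genes, 0 were called in any mutant against N2 by edgeR, with 1 germline gene in the double mutant and 1 in *set-9*, and 2 neuronal genes in the double mutant, at an unadjusted p under 0.05. The oocyte genes summed to 945 to 1067 CPM in the double mutant, 240.0 to 547 in *set-26*, 403 to 777 in *set-9* and 481 to 947 in N2. Each tested marker of these lists had reads in at least 1 library of every genotype. A sum mostly follows its most abundant genes and is not a level of the whole tissue. Most of the epidermal sum was *lin-26*, most of the muscle sum *unc-54*, and most of the intestinal sum *asp-1*, *vit-2* and *act-5*. The part of these markers in the differences of the 10 genes was not tested.

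Some reads could belong to neighbours, since the sources do not say whether counting used strand. Exons of 6 of the genes overlap those of other annotated genes: *fbn-1* by 45 bases, *noah-2* by 21, *lpr-3* by 110, *mlt-10* by 109 and 16, *mlt-11* by 90 and 112, and *sym-1* by 24 and 211. *noah-1*, *let-653*, *lpr-1* and *mlt-8* have no such overlap.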

How the data were processed

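RNA-seq libraries of whole L4 worms of 4 genotypes were analysed, 2 libraries each, grouped by the genotype label. The ChIP-seq samples were not analysed here. The authors trimmed reads with the FASTX Toolkit and cutadapt, removed tRNA and rRNA reads with Bowtie, mapped what was left onto WS250 with TopHat2, known junctions only, and summed reads per gene in Cufflinks. The authors deposited estimated counts that are not scaled to depth. Of the nonzero entries 52.1% are whole. 93 additional entries named as landmarks, which held 0.219% to 0.277% of the reads, were left out.

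Counts were rounded to whole numbers. Genes reaching 20 reads in any of the 8 libraries entered a quasi-likelihood fit of edgeR 4.0.16 (R 4.3.3), TMM-scaled, in which each of the 4 genotypes had its own mean. P-values were adjusted over all tested genes by the Benjamini-Hochberg method. The standard error (SE) is the absolute log2 fold change divided by the square root of F. The biological coefficient of variation common to all genes was 0.206. The test was first tried on count tables made up from the real means. Alternatives were DESeq2 1.42.0 (size factors and Wald test), upper quartile scaling, other filters on low counts, the replicate number as a block, fits to the libraries compared alone and each library left out in turn. Groups of 2 libraries allow no permutation test to reach the threshold.

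The 10 genes and all gene lists were chosen with earlier results of these data known. From each list were named at most 3 called genes with the largest change in each comparison with N2, and the 5 genes outside the 10 with the highest mean Pearson's r with them (log2 CPM, prior count of 2). Other genes named were chosen after their values were seen. Symbols were known for 43184 of the 46508 identifiers. Lengths, positions and overlaps came from the Ensembl 115 annotation of WBcel235, whereas the authors' genome was WS250. Figures were drawn with matplotlib 3.10.9.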

Additional observations from a re-analysis of the deposited data

Results flagged for a closer look

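For 6 of the 10 genes, the effect of losing 1 of the 2 genes *set-9* and *set-26* differed with the state of the other, by the interaction term of edgeR's quasi-likelihood test (Benjamini-Hochberg adjusted over all tested genes), beside 5.60% of all tested genes called lower and 8.27% called higher. The count was lower whichever library was left out, and the calls did not hold without either double mutant library. The log2 difference between the double mutant and the sum of the single mutant changes was −1.89 for *fbn-1*, 1.22 for *noah-1*, 1.01 for *lpr-3*, 1.87 for *mlt-8*, 3.05 for *mlt-10* and 1.41 for *mlt-11*. Losing *set-9* in worms that already lacked *set-26* went with lower *fbn-1* and higher *mlt-8* and *mlt-10*, whereas losing it in N2 went with values of 0.18 for *fbn-1*, −0.97 for *mlt-8* and −1.49 for *mlt-10*, none of them called. The median absolute log2 difference between replicates of the 10 genes was 0.0683 in the double mutant, 0.382 in *set-26*, 0.470 in *set-9* and 0.289 in N2, and its part in these results was not tested.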

How the results depend on the processing

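The number of the 10 genes called depended on the setting in several comparisons, and the cause was not tested. Between *set-9* and N2, where 0 were called, it was 7 with no filter on low counts, 1 with 20 reads required in every library, 4 with the replicate number as a block and 6 with DESeq2. Between *set-26* and N2, where 4 were called, it was 2 with upper quartile scaling, 8 with no filter and 0 with only the compared libraries in the fit. With each library left out in turn, which leaves a genotype with a lone sample assumed to vary like the others, the count was 0 to 0 for *set-9* and 0 to 5 for *set-26* against N2, 0 to 8 for the double mutant against N2, 2 to 5 against *set-9* and 0 to 4 against *set-26*, and 0 to 5 for the interaction. It was 0 for *set-26* against *set-9* under every alternative run.

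Genes called among all tested numbered 68 for *set-9*, 351 for *set-26* and 1516 for the double mutant against N2, 102 for *set-26* against *set-9*, 3800 and 1520 for the double mutant against *set-9* and *set-26*, and 2034 for the interaction. With no filter these were 746, 989, 2485, 599, 4288, 2576 and 2861. DESeq2 gave 502, 838 and 459 for *set-9*, *set-26* and the pair of single mutants, fits to the compared libraries alone gave 0, 15 and 0, and 108 genes were called for *set-9* with 20 reads in every library. Leaving out libraries gave as few as 0, 20, 134, 0, 1394, 88 and 332 calls in the same order.

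Replicate numbers come from the labels, and nothing says that they mark a shared culture or day. Across genes, libraries with 1 number in 2 genotypes deviated from the genotype means with r of 0.0464 to 0.205. With a replicate block in the fit, the 10 genes gave 4, 6, 8, 0, 6, 4 and 7 calls in the same order as above, and all tested genes gave 196, 721, 2442, 308, 4457, 2529 and 2880.

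Some small log2 fold changes changed sign. For *mlt-8* in the double mutant against N2 (−0.01) the value was 0.0035 with RLE and 0.0012 with upper quartile scaling, 0.048 with 20 reads in every library and 0.0035 with DESeq2. For *noah-2* in the double mutant against *set-9* (−0.0014) it was 0.0067 with RLE scaling, 0.068 with 20 reads in every library, 0.035 with the replicate block and 0.0067 with DESeq2. With each library left out in turn, values against N2 ran from −0.53 to 0.19 for *fbn-1* in *set-26*, −0.21 to 0.48 for *fbn-1* and −0.29 to 0.13 for *let-653* in *set-9*, and −0.039 to 0.97 for *mlt-10* and −0.23 to 0.24 for *mlt-8* in the double mutant. Between *set-26* and *set-9* they ran from −0.71 to 0.074 for *fbn-1*, −0.36 to 0.13 for *noah-1*, −0.43 to 0.15 for *noah-2*, −0.46 to 0.024 for *lpr-3*, −0.26 to 0.33 for *mlt-8*, −0.25 to 0.73 for *mlt-10* and −0.45 to 0.024 for *mlt-11*. Between the double mutant and *set-9* they ran from −0.14 to 0.36 for *noah-1*, −0.26 to 0.32 for *noah-2*, −0.33 to 0.15 for *lpr-3* and −0.10 to 0.37 for *mlt-11*, and between the double mutant and *set-26* from −0.018 to 0.36 for *noah-2*, −0.36 to 0.0047 for *lpr-1* and −0.016 to 0.26 for *lpr-3*. The interaction ran from −0.032 to 0.44 for *lpr-1* and −0.031 to 0.43 for *sym-1*. No called gene of the 10 changed sign under any alternative run. With 2 libraries a genotype, the spread between replicates limits what these comparisons can show for genes at these depths.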
